A study of Mus musculus with 24 samples.

Results

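Satellite cells are the stem cells of skeletal muscle, and the surface proteins and Notch genes commonly used to recognise them were examined in whole tibialis anterior, the muscle along the shin. The members were chosen by gene symbol: every probe whose platform symbol, in upper case, was CDH15, MEGF10, SDC3, SDC4, VCAM1, ITGA7, HEYL, HEY1, SPRY1 or NOTCH3. Of these 10 genes, 6 had a probe, with 1 probe each, among 17742 named genes and 26423 probes. They were Cdh15, Megf10, Sdc3, Sdc4, Vcam1 and Itga7. Heyl, Hey1, Spry1 and Notch3 were not analysed here, so Notch signalling is described through other genes of the pathway.

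Total RNA of 8 mice aged 6 weeks was measured, on a mixed C57BL6/J;129S1/SvImJ background. The 4 Hira CKO (conditional knockout) mice had the genotype Myf6 cre/+; Hira flox/-, and the 4 control mice had Myf6 cre/+; Hira flox/+. Both groups thus carried the Myf6 cre driver and 1 floxed Hira allele, and they differed in the other allele, null in Hira CKO and intact in control. Each animal was hybridised on 3 arrays, which are repeats of 1 RNA, and the animal was the replicate.

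A satellite cell lies between the fibre membrane and the laminin-rich basement membrane and is held there by adhesion proteins. Delta and Jagged ligands on the fibre activate Notch receptors on the satellite cell, whose cleaved inner part joins the DNA-binding protein RBPJ and turns on repressors of the Hes and Hey families. Active Notch keeps the cell quiescent and undifferentiated. Myf6 encodes a muscle transcription factor of differentiating and mature fibres. Whether the driver had also acted in satellite cells or their precursors was not measured here. In cells without cre activity the groups still differ, by a null or an intact Hira allele. The HIRA protein is a histone chaperone that places the variant H3.3 in chromatin.

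Values are deposited linear intensities, given per animal as the mean of 3 arrays. Array medians lay between 431.5 and 433.5, and the lowest value of a member on any single array was 467. The table carried no detection calls. Muscle fibre transcripts were bright, as fits the labelled tissue: the lowest value of any animal among 8 measured fibre markers was 96167, for Actn3. The Hira probe gave 614, 553, 524 and 543 in the Hira CKO animals, against 569, 472, 467 and 473 in controls. It was not lower in Hira CKO (0.17 log2, 95% interval −0.02 to 0.36, limma adjusted p 0.193). Its position within the gene is unknown here, so it cannot check the deletion, and the directions below rest on the labels.

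The 250 bases before the transcription start, from a RefSeq promoter table, are shown for 3 of the 6 measured members. These are the related syndecan genes Sdc3 and Sdc4 and the cadherin gene Cdh15, and windows of the other members are not shown here. Sdc3 was the member called lower, Sdc4 is its family relative and Cdh15 is a muscle-restricted adhesion gene. The windows come from build GRCm38.p6: Sdc3 at chr4:130792287-130792536 (plus strand), Sdc4 at chr2:164443189-164443438 (minus strand) and Cdh15 at chr8:122848124-122848373 (plus strand). Capitals mark GGGCGG on either strand, the GC box, in the syndecans. In Cdh15 they mark CANNTG, the E-box, which reads the same class of letters on both strands and is the core that myogenic factors such as MyoD recognise.
Sdc3: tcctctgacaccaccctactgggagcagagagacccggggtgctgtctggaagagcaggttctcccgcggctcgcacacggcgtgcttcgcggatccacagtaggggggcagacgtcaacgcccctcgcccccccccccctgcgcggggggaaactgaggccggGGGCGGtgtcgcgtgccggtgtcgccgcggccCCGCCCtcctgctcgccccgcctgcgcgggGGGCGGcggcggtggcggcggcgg
Sdc4: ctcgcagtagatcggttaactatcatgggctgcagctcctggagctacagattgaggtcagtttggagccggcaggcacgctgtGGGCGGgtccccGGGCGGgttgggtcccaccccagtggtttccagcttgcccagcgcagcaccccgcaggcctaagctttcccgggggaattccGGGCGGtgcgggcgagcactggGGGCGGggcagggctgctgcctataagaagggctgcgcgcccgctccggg
Cdh15: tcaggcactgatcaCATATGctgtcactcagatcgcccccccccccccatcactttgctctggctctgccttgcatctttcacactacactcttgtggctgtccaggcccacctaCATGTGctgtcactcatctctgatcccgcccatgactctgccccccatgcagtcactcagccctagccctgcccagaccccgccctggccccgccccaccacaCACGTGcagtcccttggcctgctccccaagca

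The 2 syndecan windows held 3 (Sdc3) and 4 (Sdc4) GC boxes and 0 E-boxes, while the Cdh15 window held 3 E-boxes and 3 GC boxes. Over all 32851 windows of the table, 32.7% held a GC box and 66.2% held an E-box. The RBPJ core TGGGAA, searched on both strands, was in none of the 3 windows and in 21.6% of all windows. The GC content was 76.4% for Sdc3, 68.0% for Sdc4 and 62.0% for Cdh15, against a median of 52.4% over all windows. These letters describe the windows and were not tested for binding.

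Of the 6 members, Megf10 was higher in Hira CKO, Sdc3 was lower, and Itga7, Sdc4, Cdh15 and Vcam1 did not pass the threshold. Differences are Hira CKO minus control on the log2(intensity + 16) scale, tested with limma on animal means, and a probe was called at a Benjamini-Hochberg adjusted p under 0.05 over all probes. Of 6 member probes 1 was called higher and 1 lower, where 20.6% of all probes were called in either direction. Taking the brightest probe of each of 17742 named genes, 21.2% were called, 11.0% higher and 10.2% lower. The groups did not overlap for 2 of 6 member probes, against 24.8% of all probes. The median change of the members was −0.16 log2, against 0.01 over all probes. With 6 genes, these shares do not set the members apart from other probes. In RNA of whole muscle, fewer satellite cells and less RNA per cell cannot be told apart, and several of these genes are also expressed by other cells.

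**Figure D1:**
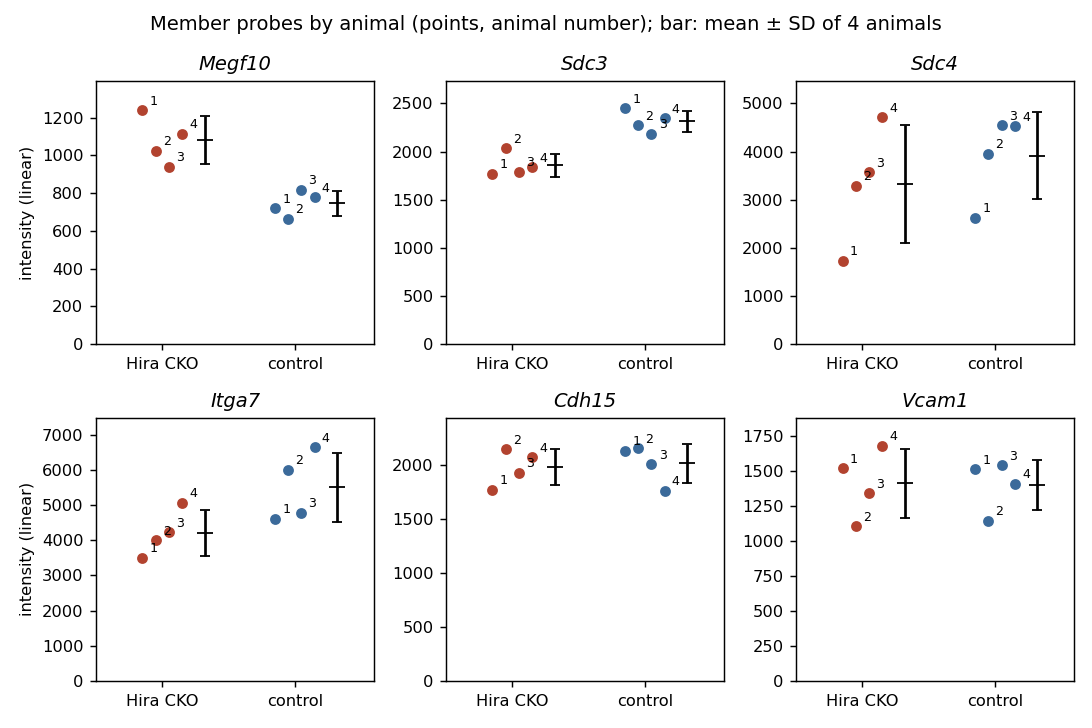
Intensity (linear, from 0) of the 6 member probes in each animal, Hira CKO on the left and control on the right of each panel; points are means of 3 arrays with the animal number, and bars show mean ± SD of 4 animals. The Hira CKO points of Megf10 (940 to 1239) lie above every control point and those of Sdc3 (1771 to 2035) lie below every control point, while the groups overlap for the other 4 genes.

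Megf10 encodes a transmembrane receptor with EGF-like repeats that supports satellite cell proliferation and serves in glia as an engulfment receptor. Its intensity was 1239, 1026, 940 and 1116 in the Hira CKO animals, against 720, 665, 819 and 779 in controls. Every Hira CKO animal exceeded every control animal, and 11 of 12 Hira CKO arrays exceeded the highest control array, 890. Means were 1080 ± 128 in Hira CKO and 746 ± 67.5 in control (SD, n = 4 each). Megf10 rose by 0.53 log2 (SE 0.104, 95% interval 0.30 to 0.77, limma adjusted p 0.00642), a fold of 1.45 with an interval of 1.23 to 1.70. Leaving out each animal in turn gave 0.47 to 0.60 log2 and adjusted p values of 0.00558 to 0.0198. Single arrays of an animal had an SD of 0.192 log2 at this probe, and animals of a group 0.156 log2.

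Sdc3 and Sdc4 encode syndecans, membrane proteins whose heparan sulfate chains bind growth factors such as FGF2 and HGF. Both mark mouse satellite cells, and in mice syndecan-3 takes part in Notch signalling while syndecan-4 acts in activation after injury. The Sdc3 probe read 1771, 2035, 1793 and 1839 in the Hira CKO animals, against 2449, 2275, 2185 and 2348 in controls. All 4 Hira CKO animals were below all 4 controls, and 10 of 12 Hira CKO arrays were below the lowest control array, 2084. Group means were 1859 ± 120 in Hira CKO and 2314 ± 112 in control (SD, n = 4 each). Sdc3 fell by 0.32 log2 (SE 0.0744, 95% interval −0.48 to −0.15, limma adjusted p 0.0151), a fold of 0.80. Its animals differed little within a group, with an SD of 0.0805 log2. When single animals were left out, the change stayed between −0.36 and −0.29 log2 with adjusted p values of 0.0158 to 0.0476.

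Sdc4 varied far more between animals. Its values were 1732, 3292, 3568 and 4717 in Hira CKO, against 2628, 3953, 4545 and 4530 in control. The groups overlapped widely, and Hira CKO held both the lowest and the highest of the 8 animals. The SD between animals of a group was 0.504 log2 and that between arrays of an animal 0.138 log2, so the spread was larger than the array error. The difference was −0.29 log2 (95% interval −0.92 to 0.34, limma adjusted p 0.508). Without Hira CKO animal 1 the difference was −0.00 log2 (adjusted p 0.990). This interval includes the change of Sdc3, and the 2 syndecan genes were not shown to differ in response: the change of Sdc3 minus that of Sdc4 was −0.03 log2 (exact two-sided permutation p 0.943 over 70 assignments of the animals, where 0.0286 is the smallest possible).

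Itga7 encodes the integrin subunit that binds laminin with integrin beta 1 on muscle fibres and satellite cells. It gave 3507, 4003, 4231 and 5066 in Hira CKO animals, against 4610, 6005, 4777 and 6645 in controls. The Hira CKO values tended to the low side, with 3 of 4 animals below every control, but animal 4 lay within the control range. Group means were 4202 ± 651 in Hira CKO and 5509 ± 980 in control (SD, n = 4 each). The difference of −0.39 log2 (SE 0.143, 95% interval −0.70 to −0.07) did not pass after adjustment (unadjusted p 0.0224, limma adjusted p 0.0837). Without Hira CKO animal 4 it was −0.48 log2 and passed (adjusted p 0.0438). It did not pass in the other 7 omissions of an animal (adjusted p up to 0.196). The Itga7 probe also passed with array weights (0.0335) and with the 24 arrays in a model that has the animal as a random block (adjusted p 0.00672). That model takes 1 correlation between arrays of an animal, 0.401, for all probes. At Itga7 the SD was 0.101 log2 between arrays of an animal and 0.237 log2 between animals of a group. The model thus counted repeat arrays as more independent than they were, and its p is too small here.

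Cdh15 encodes M-cadherin, the adhesion protein between satellite cell and fibre. It measured 1768, 2146, 1928 and 2070 in the Hira CKO animals, against 2129, 2154, 2007 and 1760 in controls. Each group spanned nearly the same range. The difference was −0.02 log2, with a 95% interval of −0.23 to 0.18 (limma adjusted p 0.874), so folds outside 0.85 to 1.13 lay beyond the interval.

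Vcam1 encodes an adhesion receptor for integrin alpha 4 beta 1, found on satellite cells and on activated endothelium. Intensities were 1518, 1104, 1340 and 1680 in Hira CKO, against 1510, 1145, 1540 and 1408 in control. The ranges of the groups lay over each other. The difference was −0.01 log2 (95% interval −0.31 to 0.29, limma adjusted p 0.968), and the SD of 0.189 log2 between arrays of an animal was close to the 0.224 log2 between animals.

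**Figure D2:**
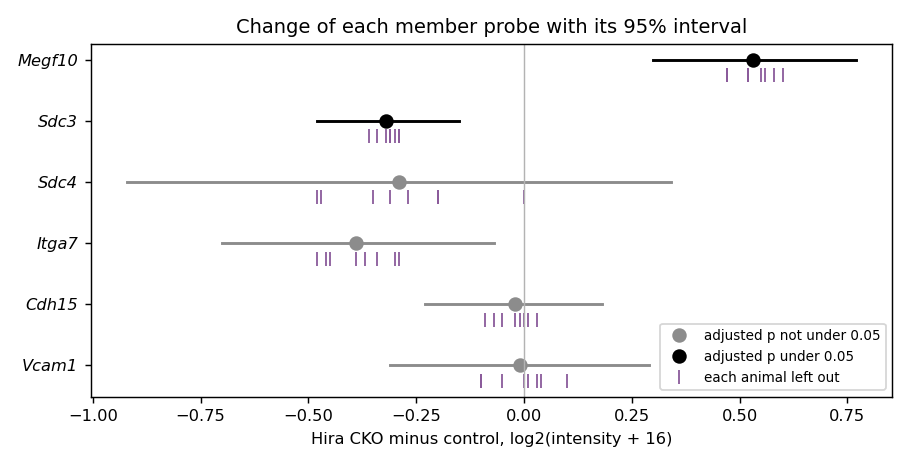
Change of each member probe (Hira CKO minus control, log2(intensity + 16)) with its 95% interval; black marks probes with an adjusted p under 0.05, grey the others, and purple ticks show the change with each animal left out in turn. Megf10 (0.53) lies above 0 and Sdc3 (−0.32) below 0 with every animal left out, and the Itga7 interval (−0.70 to −0.07) lies below 0 although its adjusted p was 0.0837.

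The animals also differed within their groups in a way that varied from gene to gene. Hira CKO animal 1 lay 0.85 log2 below its group mean for Sdc4 and control animal 1 lay 0.54 log2 below. For Itga7 the same animals were each the lowest of their group, both at −0.24 log2 from the mean. Hira CKO animal 4 was the highest of its group for Sdc4 (0.58), Itga7 (0.28) and Vcam1 (0.26). Sdc3 departed from its group mean by at most 0.13 log2 in any animal. The animal numbers of the 2 groups are names, and nothing in the labels pairs them.

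**Figure D3:**
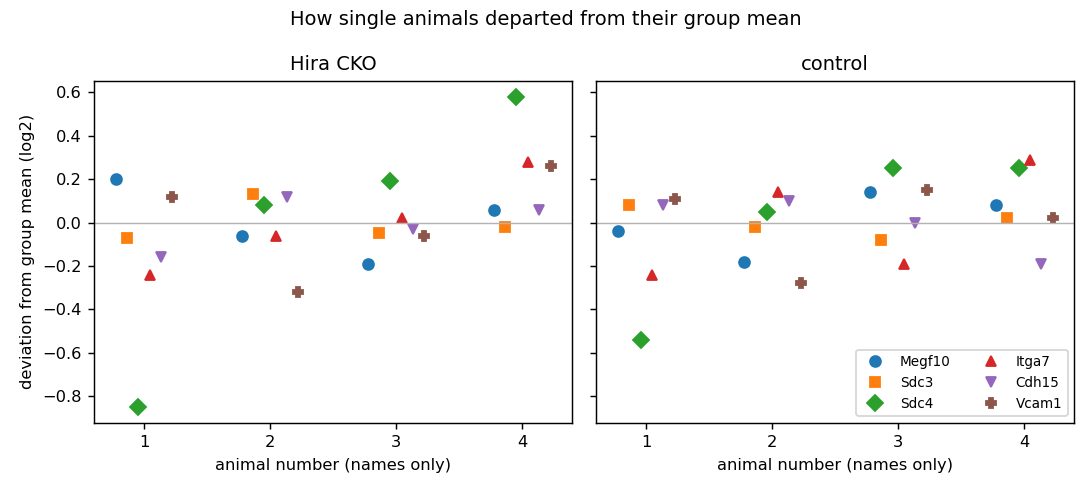
Departure of each animal from its group mean (log2) for the 6 member probes, Hira CKO on the left and control on the right, 1 symbol per gene. Sdc4 spreads most, between −0.85 and 0.58 in Hira CKO and −0.54 and 0.25 in control, and Sdc3 stays within 0.13 of 0.

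The genes whose pattern was most like each member were named by the highest Pearson correlation over the 8 animal means among 20377 named probes. For called members this correlation includes the group difference. For Megf10 these were Usp32 (0.995) and Cela1 (0.992), and for Sdc3 Zfp386 (0.986) and Cluh (0.984). For Itga7 they were Sh2b2 (0.975) and Vegfa (0.950), for Sdc4 Mir488 (0.988) and Olfr231 (0.961), for Vcam1 Gsap (0.957) and Itga11 (0.947), and for Cdh15 Gm4262 (0.884) and Ldb3 (0.866). No member was among the 2 most similar genes of another. The highest of 20377 correlations over 8 animals will be high for any probe, so these names are a description.

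Of the other genes used for satellite cells, 18 were measured and 0 rose and 2 fell, with a median of −0.14 log2. In the same comparison 11.0% of all named genes rose and 10.2% fell, as given above. The number that fell was 5 with array weights and 6 with the animal as a random block. Both settings also called more probes lower over all probes, so these counts are not to be read against the 10.2%. Cxcr4, a chemokine receptor of satellite cells and leukocytes, fell by 0.95 log2, at 57.5 to 82.7 in Hira CKO and 130 to 187 in control (limma adjusted p 0.000703). Btg2, an antiproliferative gene, fell by 0.28 log2 (adjusted p 0.0180), a call lost without control animal 3 (0.0587) or Hira CKO animal 1 (0.0522), and a dimmer probe of the gene gave −0.09 (adjusted p 0.514). Pax7, the transcription factor that defines satellite cells, read 172, 160, 171 and 177 in Hira CKO animals, against 188, 202, 204 and 203 in controls. The groups did not overlap, and the difference of −0.21 log2 (95% interval −0.36 to −0.06) had a limma adjusted p of 0.0551. Pax7 passed in 1 of 8 omissions of an animal, that of control animal 1 (−0.24 log2, adjusted p 0.0483). In the others its adjusted p was up to 0.145. Calcr, the calcitonin receptor of quiescent satellite cells, read 110 to 114 in Hira CKO and 117 to 145 in control, again without overlap (−0.21 log2, adjusted p 0.0730). Calcr passed in 1 of 8 omissions (0.0413 without control animal 2), with adjusted p up to 0.194 in the others. The Cxcr4, Pax7 and Calcr probes are dim, so their log2 differences are understated by the pseudocount. Their values lay below the array medians, and without detection calls signal and background cannot be told apart there. Pax7 and Calcr were named after their values were seen. In the same list Pax3 (0.06 log2), Itgb1 (0.11), Col5a1 (0.17), Chrdl2 (0.21) and Sdc2 (0.38) had positive differences, none of which passed. The differences of the other genes were negative.

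The Notch pathway was represented by 38 measured genes in 4 lists. Of these 4 rose (10.5%) and 4 fell (10.5%), close to the shares over all named genes. A further list of 3 Notch receptor genes other than Notch3 had 0 measured, so no Notch receptor gene was analysed. Of 6 ligand genes 0 rose and 1 fell: Jag2 fell by 0.47 log2, at 576 to 883 in Hira CKO and 877 to 960 in control (limma adjusted p 0.0257). With single animals omitted in turn, Jag2 missed the threshold 6 of 8 times (adjusted p up to 0.0728). Dll1, the ligand gene best known from developing muscle, and Dll4 each differed by −0.17 log2 and did not pass (adjusted p 0.607 and 0.490). The Dll1 difference changed sign without control animal 4, at 0.05 log2. Among 18 genes of receptor processing and nuclear cofactors 2 rose and 3 fell. Adam10, the protease that makes the first activating cut in Notch, rose by 0.70 log2, with 1613, 1663, 1468 and 1965 in Hira CKO animals against 1026, 968, 973 and 1133 in controls (adjusted p 0.00111). Psen2, a catalytic subunit of gamma-secretase, rose by 0.56 log2 (adjusted p 0.0278) but missed the threshold in 5 of 8 omissions of an animal (up to 0.0625). Poglut1, which adds glucose to the EGF-like repeats of Notch, fell by 0.46 log2 (adjusted p 0.00351). Neurl1a, a ubiquitin ligase that acts on Notch ligands, fell by 0.39 log2 (adjusted p 0.00326) and at its second probe by 0.45 log2.

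Inside the cell, the Rbpj probe was dim, with means of 106 in Hira CKO and 118 in control, and its difference of −0.14 log2 did not pass (limma adjusted p 0.233). Of 8 genes listed as Notch inhibitors 1 rose and 0 fell: Dtx3l, a ubiquitin ligase of the Deltex family, rose by 0.51 log2 (adjusted p 0.0114). Of 6 genes in the list of target repressors 1 rose and 0 fell. This was Hes6, which is known to oppose Hes1 and to favour differentiation, and so does not act as the list's name says. Hes6 stood at 8208, 7861, 6156 and 9370 in Hira CKO, against 4098, 4239, 4037 and 3271 in control, without overlap. The change was 1.00 log2 (95% interval 0.71 to 1.29, adjusted p 0.000719). Hes1, a direct target of Notch, differed by 0.14 log2 (adjusted p 0.451) and Hes5 by 0.05 log2 (adjusted p 0.718).

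**Figure D4:**
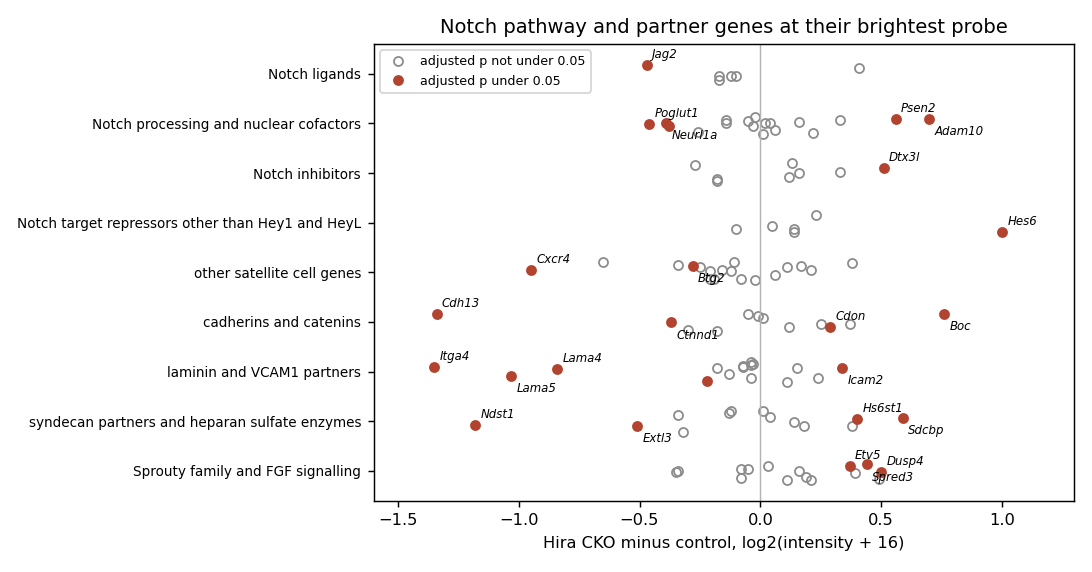
Change of each gene in the lists of Notch pathway, satellite cell, partner and FGF signalling genes (rows; lists of cell type markers are not plotted) at its brightest probe, Hira CKO minus control on the log2(intensity + 16) scale; filled points have an adjusted p under 0.05, and the genes named by rule carry their symbols. Among these plotted genes Hes6 (1.00) and Boc (0.76) lie farthest to the right, and Itga4 (−1.35), Cdh13 (−1.34) and Ndst1 (−1.18) farthest to the left.

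Some binding partners of the members, named here by the size of their change, changed more than the members did. Itga4, the alpha subunit of the receptor that binds VCAM1, read 153, 174, 133 and 219 in Hira CKO animals, against 467, 561, 395 and 395 in controls. It fell by 1.35 log2 (95% interval −1.69 to −1.01, limma adjusted p 0.000320), while Vcam1 itself gave −0.01 log2. Of 16 laminin and VCAM1 partner genes 1 rose and 4 fell, where 11.0% of all named genes were called higher and 10.2% lower. The list was not tested against these shares. Lama5 fell by 1.03 log2 (adjusted p 0.00167) and Lama4 by 0.84 log2 (adjusted p 0.000418), both laminin chains. Lama2, the main laminin chain around muscle fibres and a ligand of the Itga7 integrin, differed by 0.24 log2 (adjusted p 0.311). Itgb1, the beta subunit that pairs with Itga7, differed by 0.11 log2 (adjusted p 0.529). Icam2, an adhesion molecule of endothelium, rose by 0.34 log2 (adjusted p 0.0381) and missed the threshold in 4 of 8 omissions of an animal (up to 0.0903). The other called gene, Itga6, a laminin-binding integrin subunit, gave −0.22 log2 (adjusted p 0.0341), a call that did not hold in any of the 8 omissions of an animal (adjusted p up to 0.0961), so that 3 rather than 4 genes were then called lower.

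For the syndecans, 13 partner and heparan sulfate genes were measured, and 2 rose and 2 fell, beside 11.0% and 10.2% of all named genes. The number that fell was 4 without Hira CKO animal 4, with array weights and with the animal as a random block. Array weights and the random block also called more probes lower over all probes, so their counts are not to be read against the 10.2%. Ndst1, an enzyme that sulfates heparan sulfate chains, was at 2068, 2268, 2175 and 1660 in Hira CKO, against 4110, 5006, 4686 and 4694 in control. Ndst1 fell by 1.18 log2 (95% interval −1.42 to −0.94, limma adjusted p 9.76e-05). Extl3, which starts heparan sulfate chains, fell by 0.51 log2 (adjusted p 0.00210), and its second probe gave −0.13 (adjusted p 0.311). Sdcbp, syntenin, which binds the inner tail of syndecans, rose by 0.59 log2 (adjusted p 0.00994). Hs6st1, another sulfotransferase of these chains, rose by 0.40 log2 (adjusted p 0.0357), with 7 of 8 omissions of an animal above the threshold (up to 0.0900). The remaining syndecan genes did not pass: Sdc1 gave −0.12 log2 (adjusted p 0.398) and Sdc2 0.38 log2 (adjusted p 0.0683). Sdc2 passed in 1 of 8 omissions of an animal (0.0445 without Hira CKO animal 3), with adjusted p up to 0.169 in the others.

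Around M-cadherin, 12 cadherin, catenin and co-receptor genes were measured, and 2 rose and 2 fell, beside 11.0% and 10.2% of all named genes. Boc, a surface protein that associates with cadherins in myoblasts, stood at 1452, 1496, 1220 and 1494 in Hira CKO and 734, 916, 705 and 861 in control. It rose by 0.76 log2 (limma adjusted p 0.00119). Its relative Cdon rose by 0.29 log2 at the brightest probe (adjusted p 0.0361, above the threshold in 7 of 8 omissions of an animal) and fell by 0.38 log2 at its second probe (adjusted p 0.0136). Cdh13, a cadherin of vessels and other tissues, fell by 1.34 log2, at 2603 to 4947 in Hira CKO and 8419 to 9591 in control (adjusted p 0.000543). Ctnnd1, the p120 catenin, fell by 0.37 log2 (adjusted p 0.0161). Its arrays differed more within an animal (SD 0.285 log2) than animals did within a group (0.120 log2), and its call was lost with the animal as a random block (adjusted p 0.103) and in 2 of the 3 fits that used only 2 arrays of each animal.

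Markers of other cell types were measured in the same RNA, to be read against the 11.0% and 10.2% of all named genes called higher and lower. Of 14 endothelial markers 1 rose (2 without Hira CKO animal 4) and 5 fell (3 in 5 of 8 omissions of an animal), and 8 did not pass. Their summed intensity was 66873 to 73889 in Hira CKO and 81562 to 101401 in control. Egfl7 alone averaged 19234 in Hira CKO and 30882 in control, which is most of the difference between the mean sums. Among 10 markers of smooth muscle and pericytes 3 fell, 0 rose and 7 did not pass, with sums of 56659 to 64832 in Hira CKO and 68298 to 81363 in control. These sums lean on bright probes. Smtn averaged 14881 in Hira CKO and 19757 in control, and Acta2, which did not pass (limma adjusted p 0.274), averaged 15334 and 19496. No endothelial marker was near 0, and the lowest animal value was 1334, for Kdr. The lowest among smooth muscle and pericyte markers was 39.0, for Cnn1. Sums of the 2 groups overlapped for 11 genes listed as fibroblast markers (0 rose, 1 fell) and 10 macrophage markers (1 rose, 1 fell). They also overlapped for 7 Schwann cell and nerve markers (0 rose, 0 fell) and 8 muscle fibre markers (0 rose, 2 fell). The gene that fell in the fibroblast list was Tcf4 (−0.67 log2, limma adjusted p 0.00113). The fibroblast marker known as TCF4 is a different gene, Tcf7l2, so this fall is not that of a fibroblast marker. Cx3cr1, a chemokine receptor of macrophages and monocytes, had the largest change of any listed gene and fell by 1.61 log2, at 55.8 to 68.9 in Hira CKO and 201 to 241 in control (limma adjusted p 4.84e-06). The rise of a macrophage marker, Itgam, was lost in 6 of 8 omissions of an animal, and 2 macrophage markers fell without Hira CKO animal 4. Of the muscle fibre markers that fell, Acta1 and Ckm, the Ckm call was lost in 6 of 8 omissions. For 9 lymphocyte markers 4 rose (1 to 4 with single animals omitted) and 1 fell (0 in 6 of 8 omissions). The sums overlapped, at 4545 to 6065 in Hira CKO and 3304 to 4599 in control. They lean on Cd79a, which did not pass (limma adjusted p 0.156) and averaged 2128 in Hira CKO and 1245 in control. The SD between arrays of an animal was 0.937 log2 at the Cd79a probe. The part of these cell types in the changes of the members and their partners was not tested.

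**Figure D5:**
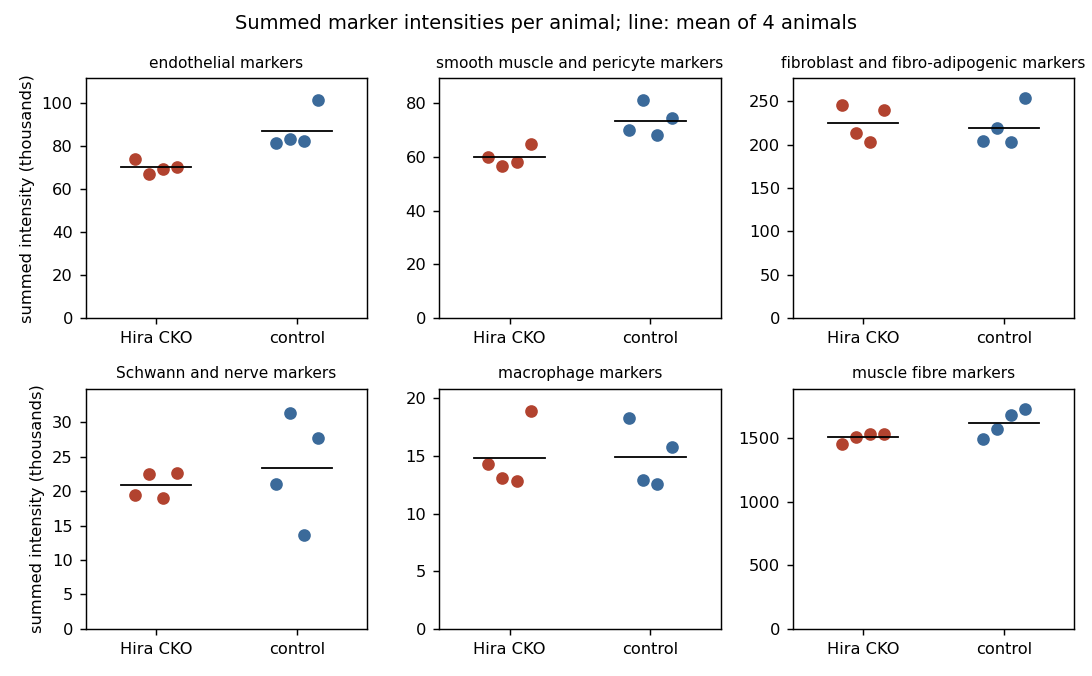
Summed intensity (axis from 0) of 6 marker lists per animal, each gene at its brightest probe, Hira CKO on the left and control on the right; lines are means of 4 animals. The groups lie apart for endothelial markers and for smooth muscle and pericyte markers and overlap in the other 4 panels.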

How the data were processed

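The deposited table held a linear intensity per probe for 24 arrays. Normalization by the authors is inferred from array medians of 431.5 to 433.5 and the same highest value, 439069.7, on every array. The labels give Cy5-labelled RNA, while scanner, background method and software are not given in the sources used here. Neither is slide or scan date, and a batch effect cannot be told apart from the group.

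The platform annotation named 20377 probes, and 2126 symbols were updated as synonyms with the RefSeq gene table of GRCm38.p6. Negative values became 0, then log2(intensity + 16) was averaged over the 3 arrays of an animal. The comparison used lmFit and eBayes of limma 3.58.1 (R 4.3.3), with Benjamini-Hochberg adjustment over 26423 probes and a threshold of 0.05. Precision is limited by having 4 animals a group. In simulated data of 26423 probes 41.8% of 67 probes changed by 0.5 log2 were recovered, and 86.6% of 67 changed by 1 log2. Apart from 66 probes changed by 2 log2, no other simulated probe carried a change, whereas 20.6% of probes were called in the data. The adjusted threshold depends on that share, so these rates do not carry over to the data.

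The members, gene lists and tests were chosen with earlier results of these data known. List genes were taken at their brightest probe, and up to 4 called genes with the largest change were picked per list, not all of which the text names. Pax7, Calcr, Dll1, Dll4, Rbpj, Hes1, Hes5, Lama2, Itgb1, Itga6, Sdc1, Sdc2, Cnn1, Fgf6, Fgfr4 and Actn3 were named outside that rule, after their values were seen. So were Acta2, Cd79a, Chrdl2, Col5a1 and Pax3. The alternatives were pseudocounts of 1, 10 and 50, a filter on the dimmest 30% of probes, other normalizations, other uses of the 3 arrays, a replicate block, other variance models, array weights, thresholds of 0.01 and 0.10, 1 probe per gene and each animal left out.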

Additional observations from a re-analysis of the deposited data

Results flagged for a closer look

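A check for single animals far from the rest took each member gene, Hira, the 40 list genes picked by the rule and genes named outside it. Acta2, Cd79a, Chrdl2, Col5a1 and Pax3 were not in the check. Of its 126 groups of 4 animals, 10 had 1 animal far from the other 3. The gap to the nearest animal, divided by the range of the group, was there above Dixon's 95% critical value, and chance gives about 1 in 20 such groups. None was a member gene. The values are each animal's mean of log2(intensity + 16) over its 3 arrays, which can order animals differently from the mean intensities. In Hira CKO the ratio was 0.905 for Jag2 (animal 4 at 9.79, the others at 9.21 to 9.26), 0.844 for Dll1 (animal 4 at 9.80, the others at 9.52 to 9.56) and 0.940 for Boc (animal 3 at 10.18, the others at 10.48 to 10.49). Also in Hira CKO, it was 0.988 for Etv5 (animal 4 at 11.50, the others at 11.35) and 0.879 for Mcam (animal 4 at 11.43, the others at 10.86 to 10.93). In control it was 0.938 for Hira (animal 1 at 9.19, the others at 8.91 to 8.93), 0.884 for Pax7 (animal 1 at 7.66, the others at 7.76 to 7.77) and 0.968 for Dll4 (animal 4 at 10.78, the others at 10.21 to 10.23). It was 0.939 in control for Extl3 (animal 3 at 12.55, the others at 12.71 to 12.72) and 0.876 for Itgam (animal 1 at 8.77, the others at 8.34 to 8.39). Of the 5 groups found in Hira CKO, 4 had animal 4 apart.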

How the results depend on the processing

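Megf10 kept its direction and call in all 26 other settings (0.47 to 0.60 log2), and Sdc3 kept both (−0.38 to −0.28 log2) except at a threshold of 0.01. The number of member probes called lower was 0 at a threshold of 0.01. It was 2, through Itga7, at a threshold of 0.10, with array weights and with the 24 arrays in a model with the animal as a random block. The limit of that model at Itga7 is given above. The number of member probes called lower was 1 in the main comparison. It ranged from 1 to 2 when single animals were left out. With the animal number as a replicate block it was also 2 (Itga7 probe, adjusted p 0.0258). Deviations of same-numbered animals correlated across probes at 0.296, 0.093, −0.064 and 0.067. Those of differently numbered animals lay between −0.213 and 0.173, so the value of 0.296, for animal 1 of each group, was the highest. The labels do not pair the animals, and whether animals of the same number shared processing was not tested. Over all probes the calls were 1113 higher and 1296 lower at a threshold of 0.01. With single animals left out they ranged from 1841 (without Hira CKO animal 1) to 2634 higher and from 1817 to 2499 lower. Cdh15 changed sign with arrays 2 and 3 only (0.04 log2) and ranged from −0.09 to 0.03 with single animals left out. Vcam1 was at 0.00 with arrays averaged before log2 and 0.05 with arrays 1 and 2 only, and ranged from −0.10 to 0.10 with single animals left out. Neither passed in any setting, and the cause was not tested. Dll1 ranged from −0.33 to 0.05 log2 with single animals left out, and Hes5 was at −0.01 with arrays 1 and 2 only. The Hira probe stayed between 0.13 and 0.24 log2 and did not pass.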

Other observations

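Around Sprouty and FGF signalling, the pathway in which Spry1 acts as an inhibitor, 15 genes were measured. Of these 3 rose and 0 fell (1 to 3 and 0 to 1 with single animals omitted), with a median of 0.16 log2. Over all named genes 11.0% were called higher and 10.2% lower, and the list was not tested against these shares. Dusp4, a phosphatase that inactivates MAP kinases, rose by 0.50 log2, at 110 to 151 in Hira CKO and 75.9 to 92.7 in control (limma adjusted p 0.00665). Spred3, an inhibitor related to Sprouty, rose by 0.44 log2, at 161 to 216 in Hira CKO and 109 to 154 in control (adjusted p 0.0225). Etv5, a transcription factor induced by FGF signalling, rose by 0.37 log2, at 2604 to 2876 in Hira CKO and 1729 to 2369 in control (adjusted p 0.0254). With animals omitted 1 at a time, Spred3 missed the threshold 4 of 8 times (adjusted p up to 0.0594) and Etv5 5 of 8 times (up to 0.0572). Fgf6, a growth factor gene of muscle named after its values were seen, differed by 0.49 log2 and did not pass (adjusted p 0.0600). It passed in 1 of 8 omissions (0.0217 without control animal 2), with adjusted p up to 0.15 in the others. Fgfr4, a receptor of satellite cells and regenerating fibres also named after its values were seen, differed by −0.34 log2 (adjusted p 0.0528). It passed in 2 of 8 omissions (0.0142 without Hira CKO animal 4), with adjusted p up to 0.133 in the others.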
